A study of Mus musculus with 36 samples.

Results

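Decorin (Dcn) was used to rank mouse tumors by stromal RNA, and the tumors with the most Dcn were compared with those with the least inside 3 expression classes. The classes were set by CPM, read counts scaled to a common total of assigned reads: libraries above 10 CPM for H2-Ea-ps, the annotated symbol of the MHC class II E alpha gene, libraries above 1000 CPM for Cp, which encodes the copper carrier ceruloplasmin, and libraries with neither. One library, PancO2 anti-PD-1 71, was left out by the rule. In each class the 5 libraries with the highest Dcn were called Dcn-rich and the 5 with the lowest Dcn-poor, so 30 of the 36 libraries of the series were compared and 5 of middle rank were not. Members were thus chosen by measured Dcn, H2-Ea-ps and Cp values, and because these 3 genes formed the groups, they are described and were not tested.

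Decorin is a small leucine-rich proteoglycan that fibroblasts secrete, and its core protein binds collagen fibrils and TGF-β. In transplanted tumors the cancer cells are injected and the stroma of fibroblasts, vessels and matrix grows in from the host. Fibroblasts of that stroma usually make decorin together with fibrillar collagens, lumican and the receptor Pdgfra, so these genes were the first to be read against Dcn.

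The series holds 36 bulk RNA libraries, each from 1 subcutaneous tumor of a wild type mouse aged 12 weeks, taken at end stage. The labels name the MC38 colon adenocarcinoma and PancO2 pancreatic adenocarcinoma lines in C57BL/6J mice and the CT26 colon carcinoma line in BALB/c mice, with 10 mg per kg of control IgG, anti-PD-1 or anti-CTLA4 given intraperitoneally, in 9 groups of 4. All 3 labelled models and all 3 labelled treatments occurred in each class of 12, so the classes do not follow the labels, and libraries are named by labelled group and mouse number. Each labelled model is 1 transplanted line. The labels were unevenly spread over the Dcn groups, with 9 IgG, 5 anti-PD-1 and 1 anti-CTLA4 library among the 15 Dcn-rich and 3 IgG, 4 anti-PD-1 and 8 anti-CTLA4 among the 15 Dcn-poor ones. Among libraries with neither marker, the Dcn-rich were 4 IgG and 1 anti-CTLA4, and the Dcn-poor 1 IgG, 3 anti-CTLA4 and 1 anti-PD-1. In the Cp class they were 2 IgG and 3 anti-PD-1 against 1 IgG, 2 anti-CTLA4 and 2 anti-PD-1. In the H2-Ea-ps class they were 3 IgG and 2 anti-PD-1 against 1 IgG, 3 anti-CTLA4 and 1 anti-PD-1. Dcn level and labelled treatment were thus linked within each class. The 30 libraries held 11821687 to 41751023 assigned reads, with 2.80% to 4.35% from mitochondrial genes, and the lowest Dcn value rested on 1430 reads.

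A few libraries stood apart in markers of tissue around the tumor. The 14 listed keratinocyte markers summed to 792 CPM in the Cp-class library PancO2 IgG 48, which is Dcn-poor, and to 95.8 CPM in the next of its group. They summed to 130 CPM in CT26 IgG 29, a Dcn-rich library without H2-Ea-ps or Cp, against 17.4 CPM in the next. The 12 skeletal muscle markers summed to 990 CPM in MC38 anti-PD-1 18 and 446 CPM in MC38 IgG 7, both Dcn-rich and of the Cp class, while the other 3 of that group lay between 14.5 and 84.5 CPM. The Cp class is therefore also read without MC38 anti-PD-1 18, MC38 IgG 7 and PancO2 IgG 48, and with summed keratinocyte, muscle and adipocyte markers as terms. In bulk RNA, fewer cells of a type and less RNA per cell cannot be told apart.

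Dcn itself spanned more between classes than within them. In the Cp class the Dcn-rich libraries held 2922, 2888, 2579, 2549 and 2378 CPM and the Dcn-poor ones 2114, 2047, 1800, 1645 and 1598 CPM, with means of 2663 ± 234 and 1841 ± 232 (SD, n = 5 each), a ratio of 1.45. Among libraries with neither marker the values were 1154, 1019, 965, 851 and 830 CPM against 767, 760, 704, 661 and 635 CPM, a ratio of means of 1.37. In the H2-Ea-ps class they were 238, 227, 209, 206 and 205 CPM against 181, 162, 151, 121 and 68.2 CPM, a ratio of 1.59. The groups cannot overlap in Dcn because the rank formed them, but the margins were small. The middle libraries of the Cp class held 2318 and 2308 CPM, next to 2378 CPM inside the rich group and 2114 CPM inside the poor group. The middle library of the H2-Ea-ps class held 184 CPM, next to 181 CPM in the poor group, and those of the class with neither held 811 and 777 CPM, next to 830 and 767 CPM.

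**Figure D1:**
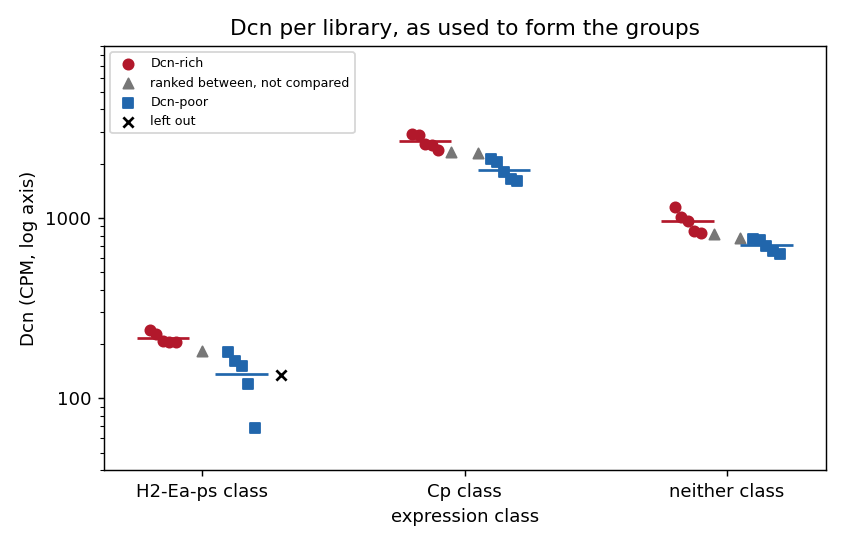
Dcn in CPM (log axis) for each library by expression class, with Dcn-rich libraries as circles, Dcn-poor as squares, libraries of middle rank as triangles, the left-out library as a cross and group means as lines. Values ran from 68.2 CPM in the H2-Ea-ps class to 2922 CPM in the Cp class, and within a class the rich mean was 1.37 to 1.59 times the poor mean.

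No fibroblast marker was called with Dcn across the 3 classes. With the class as a block, 0 of the 17339 genes tested passed an adjusted p of 0.05 (edgeR quasi-likelihood test, Benjamini-Hochberg), a background of 0%, and so none of the 19 fibroblast markers tested did. At an unadjusted p under 0.05, 2088 genes (12.0%) passed, as did 2 of the 19. DESeq2 called 138 genes (0.796%) and limma-voom 51 (0.294%). The median log2 fold change of the 19 fibroblast markers, rich over poor, was 0.10 in edgeR, beside −0.01 over all genes. Among the fibrillar collagens 0 of 10 passed, with a median of 0.23. Among the small leucine-rich proteoglycans other than Dcn 0 of 15 passed, with a median of 0.08. An unadjusted p under 0.05 was reached by 3 of 10 fibrillar collagens, 1 of 15 proteoglycans and 2 of 20 other interstitial collagens. The same held for 4 of 20 basement membrane, 5 of 23 collagen processing and 6 of 34 matrix glycoprotein genes. Of metalloproteinases and inhibitors 6 of 25 did. Of the fibrillar collagens 8 of 10 were positive, of the proteoglycans 9 of 15 and of the matrix glycoproteins 28 of 34. Over all genes 8223 of 17339 were positive. Summed CPM of the fibroblast markers overlapped between the Dcn-rich and Dcn-poor groups in every class. It ran from 2211 to 3860 CPM against 1525 to 4310 CPM in the Cp class, from 7449 to 12583 CPM against 5558 to 9281 CPM in the class with neither, and from 3325 to 4060 CPM against 3093 to 4243 CPM in the H2-Ea-ps class. The 4310 CPM in the Cp class came from PancO2 IgG 48, and the next Dcn-poor library, PancO2 anti-PD-1 70, held 2350 CPM, still inside the Dcn-rich range. The groups are called Dcn-rich and Dcn-poor here, since with the class as a block no other fibroblast or matrix gene passed. With 0 calls over all genes these counts could only be 0. Whether the matrix lists lean upward beyond chance was not tested. Some stromal genes did rise in the Cp class, as given below.

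Col1a1, the alpha 1 chain of type I collagen and the most abundant product of many activated fibroblasts, is given as an example. In the Cp class it held 658, 752, 1073, 1281 and 774 CPM in the Dcn-rich libraries and 656, 1591, 434, 802 and 591 CPM in the Dcn-poor ones, in order of falling Dcn. The groups overlapped, and the highest value came from the Dcn-poor library PancO2 IgG 48. Its log2 fold change was 0.14 ± 0.28 (SE) in the Cp class, 0.50 ± 0.28 in the class with neither and 0.31 ± 0.29 in the H2-Ea-ps class, with edgeR adjusted p of 0.827, 0.379 and 0.910.

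No gene followed Dcn in all 3 classes. Each class was tested on its own 5 against 5 libraries with the spread shared over all 30, and 0 of 17339 genes (0%) passed in every class in the same direction. This count also stayed at 0 under each of the alternatives run. It could only be 0 wherever the H2-Ea-ps class had 0 calls, as here and in most alternatives. Calls in the separate classes numbered 1402 genes (8.09%) in the Cp class, 285 (1.64%) in the class with neither and 0 (0%) in the H2-Ea-ps class. In the H2-Ea-ps class 970 genes (5.59%) reached an unadjusted p under 0.05, DESeq2 called 3 (0.0173%) and limma-voom 0. Of the Cp calls 698 (4.03%) were higher and 704 (4.06%) lower with Dcn, and of those in the class with neither 122 (0.704%) were higher and 163 (0.940%) lower. At an unadjusted p under 0.05 these classes had 4139 (23.9%) and 3023 (17.4%) genes. With no scaling beyond library size the Cp split was 915 higher and 598 lower. The Cp count was 1150 without the 2 muscle-high libraries, 1715 without these and PancO2 IgG 48, and 484 with keratinocyte, muscle and adipocyte terms. Of the 1402 main calls these fits kept 828, 990 and 448.

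**Figure D2:**
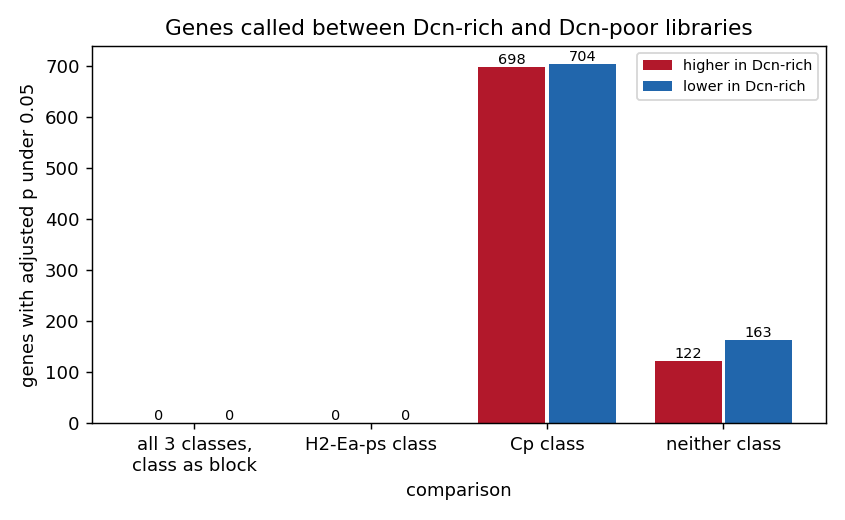
Number of genes with an adjusted p under 0.05 between Dcn-rich and Dcn-poor libraries, higher (red) and lower (blue) in the Dcn-rich group, for the 3 classes with class as a block and for each class alone. The blocked comparison and the H2-Ea-ps class have 0 calls, the Cp class 698 and 704, and the class with neither 122 and 163.

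An unadjusted p under 0.05 in each of the 3 classes was reached by 38 of the 17339 genes, and 4 of the 38 had the same sign in all 3, 1 higher and 3 lower. Over all tested genes, 3777 of 17339 had the same sign in all 3 classes. The share at an unadjusted p under 0.05 was 5.59% in the H2-Ea-ps class, 23.9% in the Cp class and 17.4% in the class with neither. Whether the 38 or the 4 exceed what these shares give by chance was not tested. These 4 were named after their values were seen. The gene higher with Dcn was Ccn4, which encodes the matricellular protein WISP1. In the Cp class it held 193, 211, 172, 225 and 198 CPM in the Dcn-rich libraries against 159, 165, 105, 133 and 117 CPM in the Dcn-poor ones. In the class with neither it held 122, 173, 141, 123 and 133 CPM against 117, 100, 54.6, 121 and 91.1 CPM, and in the H2-Ea-ps class 8.61, 5.64, 5.18, 4.40 and 6.82 CPM against 2.69, 3.89, 3.49, 5.92 and 5.66 CPM. The groups did not overlap in the first 2 of these classes and did in the third. Its log2 fold changes were 0.53 ± 0.18, 0.53 ± 0.18 and 0.48 ± 0.22, and with the class as a block 0.52 at an edgeR adjusted p of 0.0633. The 3 lower genes were Gpsm2, which orients the mitotic spindle, the cyclin gene Ccnb2, and Aipl1, a co-chaperone gene. With the class as a block Gpsm2 was at −0.35 and Ccnb2 at −0.24, both at an edgeR adjusted p of 0.0633, and Aipl1 at −0.57 with 0.0995. All 25 cell cycle genes were below 0 in that comparison, with log2 fold changes from −0.24 to −0.03, a median of −0.17 and 16 at an unadjusted p under 0.05, while 0 passed the adjusted threshold. Over all genes 12.0% reached that unadjusted level, and 8223 of 17339 were above 0. By class the cell cycle median was −0.24 in the Cp class, −0.18 in the H2-Ea-ps class and −0.04 in the class with neither. In the class with neither 6 of the 25 were above 0 and 1 reached the unadjusted level.

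Dcn-rich tumors of the Cp class had more Pdgfra and Cd34 and less Twist2 among the fibroblast markers, where 3 of 19 passed beside 8.09% of all genes. Pdgfra, the PDGF receptor that marks fibroblasts, held 252, 252, 336, 315 and 255 CPM in the Dcn-rich libraries and 160, 184, 136, 142 and 166 CPM in the Dcn-poor ones. Cd34, a surface sialomucin of fibroblasts and endothelium, held 30.3, 23.3, 32.1, 41.7 and 34.4 CPM against 17.2, 24.5, 14.8, 17.3 and 18.9 CPM. The Pdgfra groups were apart, and those of Cd34 overlapped through MC38 IgG 7 and PancO2 IgG 48. Both rose, Pdgfra by 0.81 ± 0.15 (edgeR adjusted p = 0.00273) and Cd34 by 0.77 ± 0.10 (0.000270) on the log2 scale. Twist2, a transcription factor of mesenchymal cells, fell by 0.50 (edgeR adjusted p = 0.0126), a call that was not made with the marker terms or without the libraries high in muscle and keratinocyte markers. The other 16 of the 19 fibroblast markers did not pass.

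Among proteoglycans of the decorin family 1 of 15 differed between classes by the interaction test, beside 4.95% of all genes. Of 15 tested in the Cp class 14 had a positive log2 fold change, with a median of 0.38, and 1 passed, Kera, which encodes keratocan and stayed at or below 2.43 CPM. Among libraries with neither marker 4 of 15 were positive, with a median of −0.37 and 0 passing. Ogn, which encodes osteoglycin, had 0.88 ± 0.43 in the Cp class and −1.52 ± 0.43 in the class with neither, and it was the 1 that passed (edgeR interaction adjusted p = 0.0469). Lum, which encodes lumican, had 0.58 ± 0.31 and −0.81 ± 0.33, with an edgeR interaction adjusted p of 0.107. Lum in the Cp class held 94.5, 179, 184, 212 and 103 CPM in Dcn-rich and 113, 135, 78.5, 94 and 87 CPM in Dcn-poor libraries, which overlap.

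**Figure D3:**
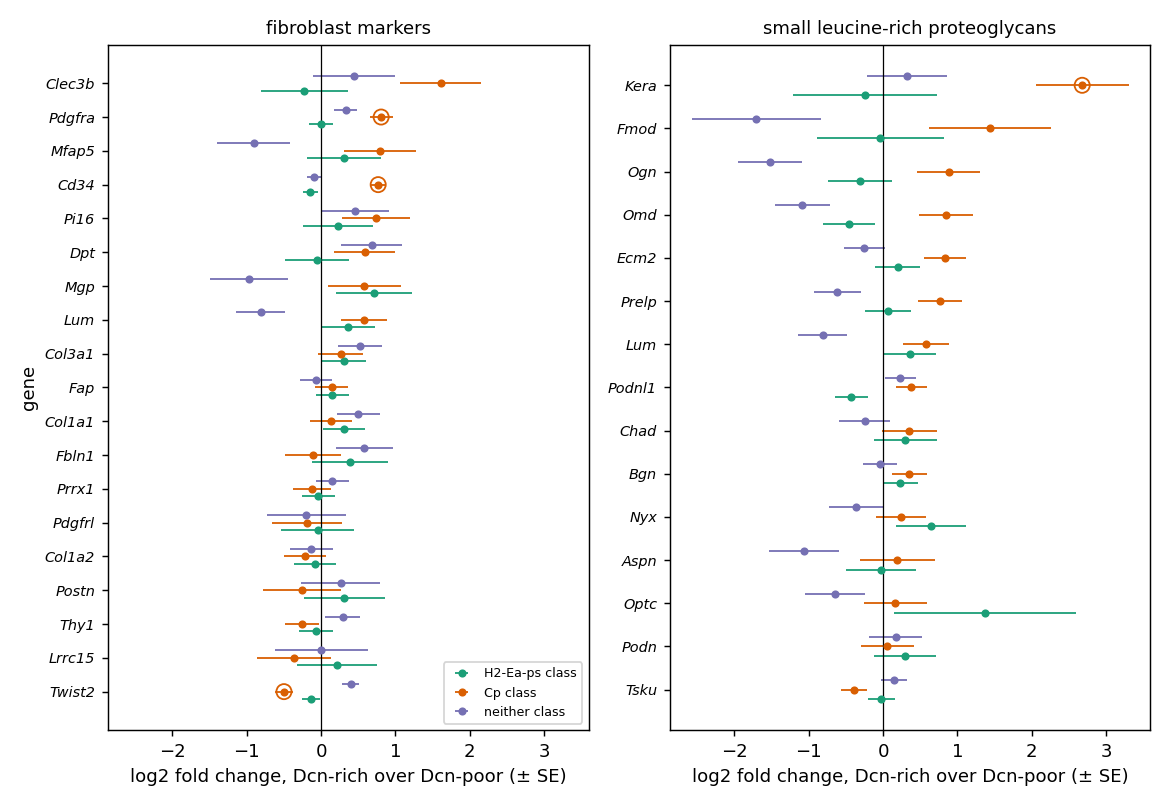
Log2 fold change, Dcn-rich over Dcn-poor, with its standard error for the tested fibroblast markers (left) and small leucine-rich proteoglycans (right) in the H2-Ea-ps class (green), the Cp class (orange) and the class with neither (purple), with rings around values at an adjusted p under 0.05. The ringed values are Pdgfra, Cd34, Twist2 and Kera in the Cp class, and Lum, Ogn, Omd, Prelp and Fmod lie above 0 in that class and below 0 in the class with neither.

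Some vessel, basement membrane and TGF-β genes passed in the Cp class, where 4.03% of all genes were higher and 4.06% lower. Of 15 blood endothelial markers 6 rose and 0 fell, with a median of 0.56, among them Cdh5, the endothelial cadherin, at 0.82 ± 0.19 (edgeR adjusted p = 0.00897), and the VEGF receptor Kdr at 0.61 ± 0.15 (0.0160). Of 20 basement membrane genes 5 rose, including the laminin chain Lama4 at 0.68 and nidogen 2, Nid2, at 0.77, and 1 fell. In the class with neither, 1 of 15 endothelial markers, the tight junction gene Cldn5, fell by 0.82, beside 0.940% of all genes lower there. The list median was −0.27. Of 18 TGF-β genes 4 rose in the Cp class, the ligand Tgfb3, the receptors Tgfbr1 and Tgfbr2 and the target Ccn2, and 3 fell, among them the inhibitor Smad7 and the induced gene Tgfbi. The list median was −0.07, so the pathway did not move one way. With keratinocyte, muscle and adipocyte markers as terms 0 endothelial markers passed, 2 basement membrane genes rose and 0 fell, and 1 TGF-β gene rose and 2 fell. Without the 3 libraries high in muscle or keratinocyte markers, 10 endothelial markers rose.

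The 6 genes led those that rose with Dcn in the Cp class only, meaning that they passed there, passed in neither other class and differed from the mean of the other 2 classes by test. In all 631 genes (3.64%) did so, 333 higher (1.92%) and 298 lower (1.72%). Camk2b, the beta subunit of calmodulin kinase II, held 50.2, 138, 89.2, 72.6 and 46.2 CPM in the Dcn-rich and 37.9, 29.1, 28.1, 33.1 and 35.7 CPM in the Dcn-poor libraries of the class. Olfml2b, which encodes a secreted olfactomedin-domain protein, held 76.7, 45.4, 90.9, 111 and 60.6 CPM against 35.9, 51.9, 23.9, 24.4 and 28.2 CPM. The Camk2b groups were apart, and those of Olfml2b overlapped through MC38 IgG 7 and PancO2 IgG 48. Camk2b rose by 1.24 ± 0.22 on the log2 scale (edgeR adjusted p = 0.00188) and Olfml2b by 1.20 ± 0.21 (0.00146). The others were the arrestin-domain gene Arrdc2 at 1.77, the Polycomb family gene Scml4 at 1.48, the sorting receptor gene Sort1 at 1.23, whose counts may hold reads of its antisense gene Gm12523, and Ccdc80, which encodes a secreted matrix protein, at 1.07. Arrdc2 was uneven within the Dcn-rich group, with 104, 17.8, 93.1, 46.7 and 17.4 CPM, and PancO2 anti-CTLA4 57, of middle rank, held 160 CPM.

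The 6 that led the fall in the Cp class only were mediators of inflammation and stress: Slpi, a secreted protease inhibitor gene, Gdf15, which encodes a stress-induced cytokine, Nos2, the inducible nitric oxide synthase, Ptgs2, the inducible cyclooxygenase, and the monocyte chemokine genes Ccl7 and Ccl2. Gdf15 held 6.01, 12.1, 3.29, 1.60 and 4.59 CPM in Dcn-rich and 18.5, 7.24, 29.5, 18.1 and 26.3 CPM in Dcn-poor libraries. Ptgs2 held 90.7, 201, 82.5, 36.8 and 99.1 CPM against 408, 200, 361, 378 and 330 CPM. In both genes the groups met only at the Dcn-rich library MC38 IgG 7 and the Dcn-poor library PancO2 IgG 48. Gdf15 fell by 1.89 on the log2 scale (edgeR adjusted p = 0.00413), Ptgs2 by 1.75 (0.00309), Slpi by 1.95 (0.0131) and Nos2 by 1.81 (0.0213). Ccl2 held 27.2, 55.3, 19.2, 14.4 and 57.5 CPM against 68.3, 122, 127, 126 and 45.6 CPM and fell by 1.51 (0.00433), and Ccl7 fell by 1.65 (0.00668). The Ccl2 groups overlapped through CT26 anti-CTLA4 36. Slpi shares part of its locus with Mir7678.

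Of the hypoxia and interferon lists 5 of 16 and 2 of 15 genes fell in the Cp class, beside 4.06% of all genes. Of 16 hypoxia and glycolysis genes all 16 had a negative log2 fold change in the Cp class, with a median of −0.53, and 5 fell: Slc2a1, Hk2, Pgk1, Eno1 and Slc16a3, which take up glucose, process it or export lactate. Hk2, the inducible hexokinase, held 69.7, 103, 54.8, 42.5 and 63.5 CPM against 126, 113, 158, 145 and 122 CPM, with no overlap, and fell by 1.02 (edgeR adjusted p = 0.00142). All 15 interferon-stimulated genes were negative, with a median of −1.0, and 2 passed, Rsad2 and the T cell attractant Cxcl10. With keratinocyte, muscle and adipocyte terms 1 hypoxia gene and 0 interferon-stimulated genes passed, and without the 3 libraries high in muscle or keratinocyte markers 5 and 13 did. Of the stromal chemokine and cytokine list 4 of 15 fell, Ccl2, Ccl7, Lif and Csf1, and 0 rose. The stress genes Atf4 at −0.83, Sesn2 at −1.02 and Mthfd2 at −1.17, the cytokine gene Il1b at −1.48 and Cd274, which encodes PD-L1, at −1.18 also fell and were picked after their values were seen.

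Other cells were read in the same libraries. Of the keratinocyte markers in the Cp class 6 of 11 fell and 0 rose, with a median of −2.70, and Krt14 held 210 CPM in PancO2 IgG 48 and at most 8.08 CPM in the other 9 libraries of the class. Without the 3 libraries high in muscle or keratinocyte markers 0 of 13 keratinocyte markers passed. All 12 skeletal muscle markers were positive in the Cp class, with a median of 2.08 and 0 passing. Macrophage markers fell in 2 of 15 (Msr1 and Arg1) and T and NK cell markers in 1 of 14 (Prf1), or 7.14%, beside 4.06% of all genes, and 0 of either list passed with the keratinocyte, muscle and adipocyte terms. No adjusted call was made among neutrophil, mast, B, dendritic or Schwann cell markers in any class. In the class with neither, all 6 neutrophil markers tested were positive, with a median of 1.34. Of these 4 reached an unadjusted p under 0.05 in edgeR, beside 17.4% of all genes. In the Cp class 0 of the 6 were positive, with a median of −0.45. Summed neutrophil markers overlapped in the class with neither. The Dcn-rich library PancO2 IgG 51 held 32.1 CPM, inside the Dcn-poor range of 28.8 to 67.4 CPM.

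In the class with neither marker Dcn-rich tumors had more Mmp10, Il33, Sod3 and Cxcl3 and less Maoa, Galnt15 and Cgnl1. Mmp10, a secreted metalloproteinase that degrades matrix, held 62.2, 67, 94.7, 31.9 and 59.4 CPM in the Dcn-rich and 10.7, 11.9, 3.96, 17 and 16.7 CPM in the Dcn-poor libraries. Il33, an alarmin cytokine of stromal and epithelial cells, held 17.8, 24.4, 24.5, 10.4 and 18.7 CPM against 3.38, 9.33, 6.07, 2.91 and 3.57 CPM. Sod3, the extracellular superoxide dismutase, held 104, 96.4, 78.4, 56.2 and 66.3 CPM against 30.6, 28.7, 20.3, 37.5 and 25.6 CPM. In none of these 3 genes did the groups overlap. Mmp10 rose by 2.39 ± 0.47 on the log2 scale (edgeR adjusted p = 0.0137), Il33 by 1.94 ± 0.32 (0.00890) and Sod3 by 1.5 ± 0.32 (0.0177). Il33 in the Cp class stood at 221 CPM in Dcn-rich and 202 CPM in Dcn-poor libraries and Sod3 at 226 and 246 CPM, so both were more abundant there, and neither passed.

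Genes that passed only in this class numbered 174 (1.0%), 79 higher (0.456%) and 95 lower (0.548%). Beside Mmp10, Il33 and Sod3, those that led the rise were the neutrophil chemokine gene Cxcl3 at 2.57, Fst, which encodes the activin-binding protein follistatin, at 1.13, and Ak4, a mitochondrial adenylate kinase gene, at 1.02. Cxcl3 held 32.9, 59.3, 29.4, 5.20 and 16.9 CPM against 1.26, 9.89, 4.47, 2.91 and 5.79 CPM, and the groups overlapped through PancO2 IgG 51 at 5.20 CPM. The fall was led by the glycosyltransferase gene Galnt15 at −1.83, Maoa, which encodes monoamine oxidase A, at −1.65, the nonmuscle myosin gene Myh10 at −1.30, the junction gene Cgnl1 at −1.11, the endocytic receptor gene Cubn at −1.04 and Trim44 at −0.98. Cgnl1 held 35, 37.4, 34.9, 50.1 and 37 CPM against 46, 109, 126, 57.7 and 88.6 CPM, with overlap only between PancO2 IgG 51 and MC38 anti-CTLA4 11. Maoa held 10.2, 5.08, 11.1, 11 and 8.86 CPM against 20.3, 41.8, 49, 8.27 and 28 CPM, and CT26 anti-PD-1 40 was the Dcn-poor library inside the Dcn-rich range. Ak4 missed the threshold in 21 of 30 fits that left out 1 library, and Myh10 in 11 of 30. Counts of Fst may hold reads of its antisense gene Gm47040, and those of Cubn reads of Gm13270.

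**Figure D4:**
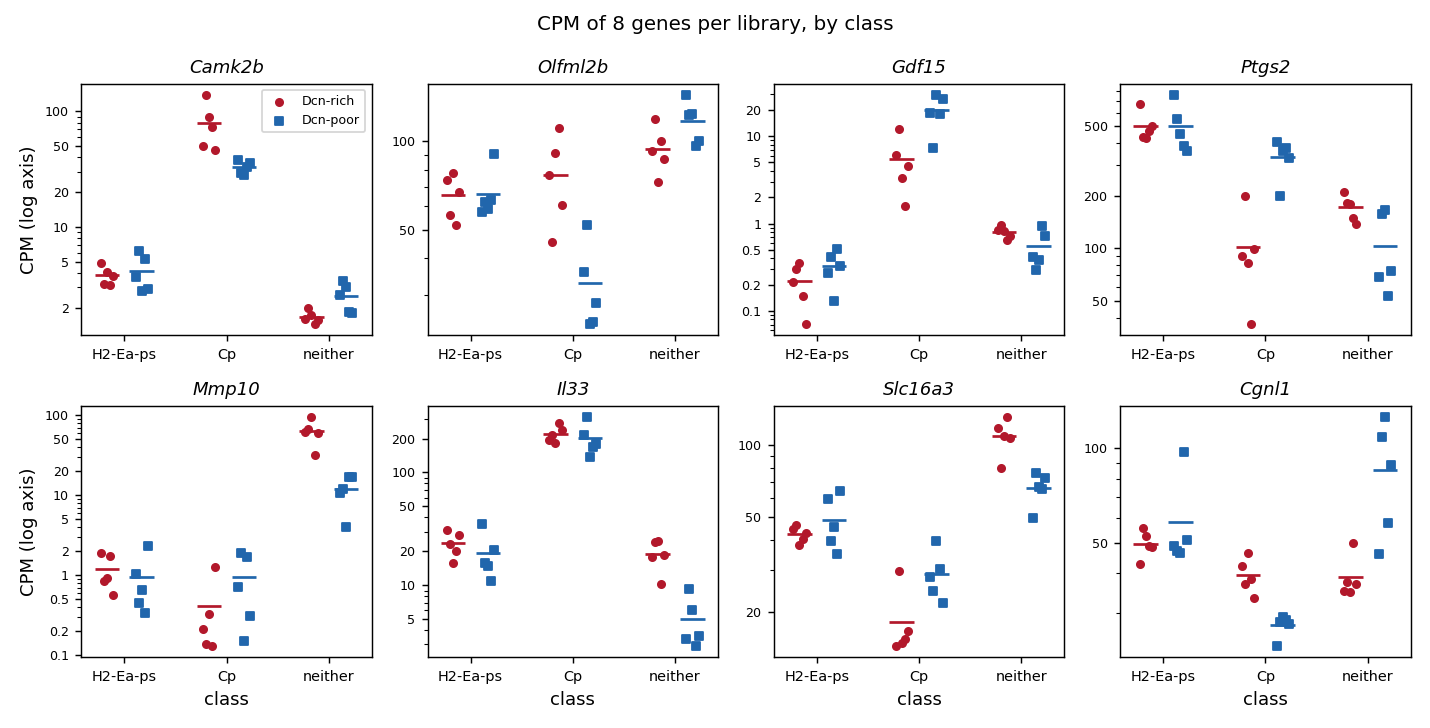
CPM (log axes) of 8 genes in the 30 libraries, by class, with Dcn-rich libraries as red circles, Dcn-poor as blue squares and group means as lines. Camk2b and Olfml2b are higher and Gdf15 and Ptgs2 lower in Dcn-rich libraries of the Cp class, Mmp10 and Il33 are higher and Cgnl1 lower in those of the class with neither, and Slc16a3 is lower in the first and higher in the second.

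Many of the genes that tracked Dcn in both of these classes in the main fit did so in opposite directions. They numbered 42, which is 3.0% of the Cp calls and 14.7% of the calls in the class with neither, and 37 were opposite and 5 alike. The 2 classes share no library. Cxcl2, a neutrophil chemokine gene, held 4.58, 9.96, 7.18, 3.56 and 11.1 CPM in Dcn-rich and 14.4, 54.4, 12, 33.6 and 6.86 CPM in Dcn-poor libraries of the Cp class, and 37.1, 52.8, 39.5, 7.59 and 18.8 CPM against 4.11, 14.2, 8.94, 4.21 and 6.80 CPM in the class with neither. It fell by 1.74 in the first and rose by 2.03 in the second, with overlapping groups in both, and the difference between classes passed (edgeR interaction adjusted p = 0.0126). Slc16a3, a lactate exporter gene, held 14.4, 29.7, 14.7, 15.4 and 16.6 CPM against 27.9, 24.5, 39.7, 30.2 and 21.8 CPM, and then 118, 79.8, 109, 131 and 107 CPM against 49.4, 76.2, 66.8, 65.2 and 73 CPM. It fell by 0.70 in the Cp class, where MC38 IgG 7 lay within the Dcn-poor range, and rose by 0.74 in the class with neither, where the groups were apart.

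The chemokine gene Ccl3 at −1.40 and 1.44, Rgs16, a regulator of G protein signaling, at −0.95 and 0.86, and the oncostatin M receptor gene Osmr at −0.38 and 0.70 were of the same kind. The basement membrane gene Nid2 at 0.77 and −0.62 and the protocadherin gene Pcdh17 at 0.85 and −1.16 went the other way. The 5 genes alike, all higher with Dcn, were Rapsn, Cpq, Kcnh2, Rgma and P3h4, of which P3h4 takes part in collagen modification. Of all 1402 Cp calls, 939 had the opposite sign in the class with neither and 463 the same, whether or not they passed there. Read in the H2-Ea-ps class, 884 of the 1402 had the same sign and 518 the opposite. No sign count over all genes is given beside these splits, so they have no background. The opposite count was 2 of 2 shared genes without PancO2 IgG 49 and 74 of 98 without CT26 anti-PD-1 40. It was 87 of 103 by DESeq2, 18 of 25 with labelled treatment as a term and 3 of 6 with the upper 4 and lower 4 libraries. With Dcn as a continuous term it was 5 of 12 over 35 libraries and 7 of 14 over 34. No gene was shared when each class was fitted alone. Differences between classes were found in 858 genes (4.95%) by the interaction test, and 4041 (23.3%) reached an unadjusted p under 0.05.

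**Figure D5:**
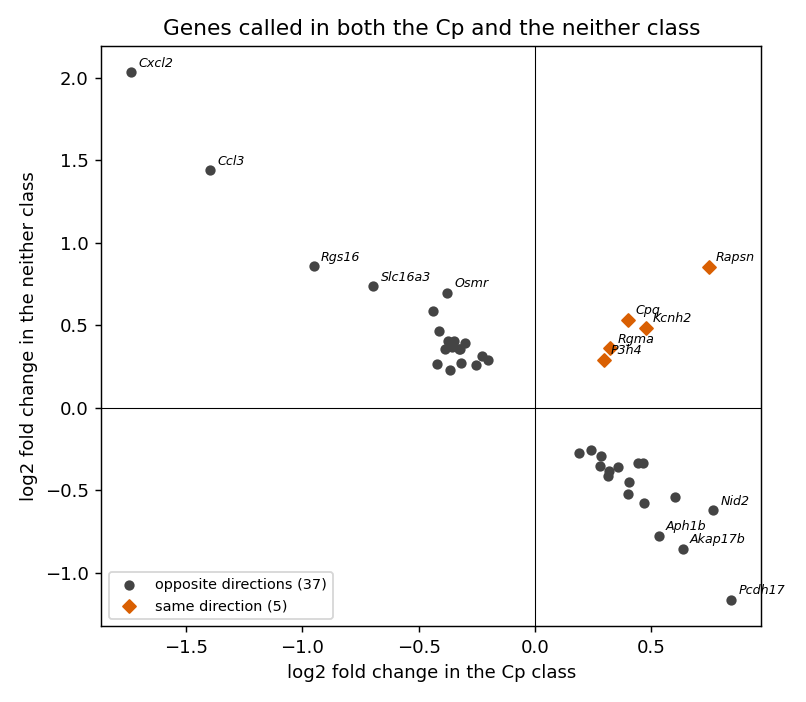
Log2 fold change, Dcn-rich over Dcn-poor, in the Cp class (horizontal) and the class with neither (vertical) for the 42 genes called in both. The 37 gray points lie in the quadrants of opposite sign, with Cxcl2 at −1.74 and 2.03, and the 5 orange diamonds are higher in both.

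Of 10 genes of pyrimidine and UDP handling, a list around Cda and P2ry6, which the study asks about, 2 passed in the Cp class. Upp1 was lower and Entpd2 higher with Dcn, beside 8.09% of all genes called there in either direction. Cda, the cytidine deaminase gene, had log2 fold changes of −0.49 ± 0.22 in the Cp class, −0.49 ± 0.23 in the class with neither and −0.17 ± 0.23 in the H2-Ea-ps class, and −0.39 with the class as a block (edgeR adjusted p = 0.210). P2ry6, the receptor for UDP, was at −0.14 in the blocked comparison (0.498). Upp1, the uridine phosphorylase gene, fell by 1.32 in the Cp class (0.00309), with 17.4, 19.2, 8.66, 9.45 and 16.5 CPM against 32.3, 18, 46.7, 38.4 and 39 CPM, where PancO2 IgG 48 was the Dcn-poor library inside the Dcn-rich range. In the class with neither it stood at 126 and 77.5 CPM, a log2 fold change of 0.71 ± 0.24 (0.119), and the interaction passed (0.00517). Entpd2, an ectonucleotidase gene, rose by 1.22 in the Cp class (0.0487), a call that was not made with the marker terms, without the 2 muscle-high libraries, or without these and PancO2 IgG 48.

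The start regions of the genes that led each of the 4 sets called in 1 class only are printed here, since these genes carry the class-specific result and had entries in RefSeq (GRCm38.p6). Each run is the 250 bases before the annotated start, on the strand of the gene. Capitals mark matches on either strand to the motifs searched, which were the hypoxia response core (ACGTG), AP-1 (TGANTCA), the ATF4-type motif (TGATGNAA), the NF-κB motif, TEAD (GGAATG), the TATA box (TATAAA) and CCAAT.
Arrdc2, higher in the Cp class, chr8:70839721-70839970, minus strand: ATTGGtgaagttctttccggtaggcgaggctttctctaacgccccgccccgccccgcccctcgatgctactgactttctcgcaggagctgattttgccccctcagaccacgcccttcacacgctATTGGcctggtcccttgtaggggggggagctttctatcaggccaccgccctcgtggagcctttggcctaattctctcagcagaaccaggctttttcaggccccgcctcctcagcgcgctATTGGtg
Slpi, lower in the Cp class, chr2:164356508-164356757, minus strand: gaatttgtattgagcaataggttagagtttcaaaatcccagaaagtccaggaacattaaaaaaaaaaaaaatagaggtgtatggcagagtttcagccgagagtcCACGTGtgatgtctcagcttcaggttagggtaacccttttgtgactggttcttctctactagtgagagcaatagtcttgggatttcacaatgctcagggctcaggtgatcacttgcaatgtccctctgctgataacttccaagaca
Cxcl3, higher in the class with neither, chr5:90785851-90786100, plus strand: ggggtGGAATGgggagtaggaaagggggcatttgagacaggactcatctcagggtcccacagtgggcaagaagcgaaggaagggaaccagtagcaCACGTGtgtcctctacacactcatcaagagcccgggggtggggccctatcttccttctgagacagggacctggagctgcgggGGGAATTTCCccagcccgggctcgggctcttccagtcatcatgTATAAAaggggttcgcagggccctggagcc
Galnt15, lower in the class with neither, chr14:32028853-32029102, plus strand: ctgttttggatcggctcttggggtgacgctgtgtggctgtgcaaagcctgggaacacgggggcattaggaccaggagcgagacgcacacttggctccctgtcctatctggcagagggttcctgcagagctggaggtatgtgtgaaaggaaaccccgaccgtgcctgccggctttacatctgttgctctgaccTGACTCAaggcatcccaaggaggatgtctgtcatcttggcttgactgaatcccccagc

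The Arrdc2 run holds CCAAT on the opposite strand, printed as ATTGG, that of Slpi overlapping ACGTG matches on both strands, that of Galnt15 an AP-1 match, and that of Cxcl3 matches to TEAD, ACGTG, NF-κB and TATA. Of the 15105 start regions of that length for tested genes, 34.7% hold CCAAT, 20.3% ACGTG, 11.1% the TEAD letters, 7.2% TATAAA, 5.02% AP-1, 2.17% the ATF4-type letters and 0.410% the NF-κB letters. Sets could not be compared with this background, because under 80% of the genes in each set had an entry, for example 59 of the 79 genes that rose in the class with neither only. A match is a description of letters and not of binding.

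The calls in single classes rested on few libraries. The Cp count was 596 without MC38 anti-PD-1 18, 644 without MC38 anti-CTLA4 8, 682 without CT26 IgG 28, 761 without PancO2 anti-PD-1 70, 883 without PancO2 anti-PD-1 68 and 2128 without PancO2 IgG 48. The count in the class with neither was 8 without PancO2 IgG 49, 41 without CT26 IgG 24, 70 without CT26 anti-CTLA4 32, 81 without MC38 anti-CTLA4 10, 103 without CT26 IgG 29, 170 without PancO2 anti-CTLA4 61, 171 without MC38 IgG 2, 507 without PancO2 IgG 51 and 1003 without CT26 anti-PD-1 40. With the spread taken from the 10 libraries of a class alone, 327 genes (2.09%) passed in the Cp class and 9 (0.0579%) in the class with neither. With labelled treatment as a term, 931 genes passed in the Cp class and 291 in the class with neither, and 0 with the class as a block. Of the main calls this fit kept 903 in the Cp class and 200 of 285 in the class with neither. No named gene changed direction in 1125 values over the alternatives, and 115 of these missed the threshold. These genes were picked for large changes in the same data. Of the 1010 values that kept the call, 660 came from fits without 1 of the 30 libraries, often one of another class, so agreement was likely from the start. With each class fitted alone 4 of the 24 kept the call and 20 missed it. The middle libraries of the Cp class lay beyond the Dcn-rich mean for 8 and 9 of the 12 genes named there and between the group means for 4 and 3. Of the 12 genes named in the class with neither, MC38 anti-PD-1 19 lay between the means for 6, beyond the Dcn-poor mean for 4 and beyond the Dcn-rich mean for 2, and CT26 anti-PD-1 41 for 1, 6 and 5. Mmp10, Il33, Cxcl3 and Fst were below the Dcn-poor mean in both, with Mmp10 at 11.5 and 8.31 CPM, although these libraries rank above the Dcn-poor group.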

How the data were processed

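RNA was extracted from end-stage tumors with TRIzol, and poly-A libraries were made, per the labels, with the TruSeq V2 kit, while the study's methods name a KAPA stranded kit. Reads were aligned by the authors with TopHat and Bowtie to GRCm38/mm10 and counted per gene with HTSeq, and the deposited table holds raw counts for 37417 genes. The strand setting of the counting is not given in the sources used here. The submitters' processing notes name FastQC 0.11.5. The 5 summary lines of the counter, which held 44.8% to 63.4% of reads in 35 libraries and 86.5% in the library left out, stayed out of totals and tests.

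Members and gene lists were chosen with earlier results of these data known. Genes were filtered with filterByExpr on the 6 groups of class and Dcn level and scaled by TMM, and tested with the edgeR 4.0.16 quasi-likelihood test in R 4.3.3, robust dispersions and Benjamini-Hochberg adjustment over 17339 genes. Class was a block in the comparison over 30 libraries, and each class, the interaction and each class against the mean of the other 2 were contrasts among 6 group means. The 3 genes of the rule stayed out. A call is an association with Dcn in the same libraries, and no condition was imposed. DESeq2 1.42.0 and limma 3.58.1 (voom) were alternatives. The procedure was tested on simulated data. Nothing in the labels tells whether mice of a labelled group were handled together, so p-values measure the spread between these libraries. The 30 libraries held a median of 28366300 assigned reads, and intervals here cover the spread between libraries.

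Named among genes called in 1 class only were, in each direction, the 6 with the largest absolute log2 fold change in that class and a mean of at least 10 CPM over its 10 libraries, beside members of the lists, Cda and P2ry6. Some list members are not reported here by name.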

Additional observations from a re-analysis of the deposited data

Results flagged for a closer look

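In 7 of 90 sets of 5 libraries, 1 library lay far from the others, where chance gives about 4.5. CT26 anti-CTLA4 36 held 11.7 CPM of Scml4 among Dcn-poor libraries of the Cp class, against 7.76 CPM in the next. PancO2 IgG 51, Dcn-rich in the class with neither, held 50.1 CPM of Cgnl1 (next 37.4 CPM) and 20.2 CPM of Cubn (next 15 CPM). Summed keratinocyte markers were 792 CPM in PancO2 IgG 48 (next 95.8 CPM), 130 CPM in CT26 IgG 29 (next 17.4 CPM) and 40.3 CPM in CT26 anti-PD-1 46 (next 24.9 CPM). Summed skeletal muscle markers were 227 CPM in PancO2 IgG 48, against 62.9 CPM in the next Dcn-poor library of the Cp class.

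The rich-against-poor difference itself differed between classes in 858 genes by the edgeR interaction test. The genes listed next were picked because their class differed from the mean of the other 2 and their change was large. Large differences were thus fixed in advance. For the genes named in the Cp class, its log2 fold change minus the mean of the other 2 classes was 2.07 for Arrdc2, 1.43 for Scml4, 1.59 for Camk2b, 1.30 for Sort1, 1.37 for Olfml2b and 1.33 for Ccdc80, and it was −2.63 for Slpi, −1.90 for Gdf15, −2.68 for Nos2, −2.11 for Ptgs2, −1.70 for Ccl7 and −1.63 for Ccl2. For those named in the class with neither it was 3.13 for Cxcl3, 2.94 for Mmp10, 1.77 for Il33, 1.57 for Sod3, 0.996 for Fst and 1.43 for Ak4, and −1.75 for Galnt15, −1.63 for Maoa, −1.37 for Myh10, −1.24 for Cgnl1, −1.03 for Cubn and −1.06 for Trim44.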

How the results depend on the processing

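No gene followed Dcn in all 3 classes under any alternative run, but most alternatives called 0 genes in the H2-Ea-ps class, which fixed that count at 0. The exceptions were DESeq2 with 3 calls there and continuous Dcn over 35 libraries with 229. The counts in single classes moved widely, and the cause was not tested. No paired analysis was possible because each mouse number in the labels belongs to 1 library. With the class as a block, 0 genes became 5 with at least 10 counts in every library, 138 by DESeq2, 51 by limma-voom, 47 with the upper 4 and lower 4 libraries, 150 and 222 with continuous Dcn over 35 and 34 libraries, 1 with PancO2 anti-PD-1 71 put back, 1 without the 2 muscle-high libraries, and 1 without these and the keratin-high one. These last sets and the 34-library fit were chosen after seeing the data, as was the fit of each class alone. The 858 interaction genes became 362 with no filter, 1721 by DESeq2, 233 with upper and lower 4, 1727 and 272 with continuous Dcn over 35 and 34 libraries, 149 with the left-out library, 569 with a depth term and 1432 without the muscle-high and keratin-high libraries.

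In the H2-Ea-ps class DESeq2 gave 3 and continuous Dcn 229 genes, 80 of them in that class only, and 0 without CT26 anti-CTLA4 34. The Cp count of 1402 became 207 when a log2 change of 1 or more in size was also asked for, 801 with no filter, 464 with the left-out library, 931 with labelled treatment, 484 with skin, muscle and fat terms and 327 by class alone. The 285 in the class with neither became 66 under that limit, 121 with no filter, 708 by DESeq2, 46 with upper and lower 4, 177 with continuous Dcn, 43 with the left-out library and 9 by class alone. The 631 genes of the Cp class only became 91 under it, 304 with no filter, 1026 by DESeq2, 298 with upper and lower 4, 189 with the left-out library, 316 with skin terms, 1088 without muscle-high and keratin-high libraries and 340 with continuous Dcn over 34. The 174 of the class with neither only became 44 under it, 68 with no filter, 408 by DESeq2, 20 with upper and lower 4, 21 with the left-out library, 115 with a depth term and 34 with continuous Dcn over 34.

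Leaving out 1 library at a time gave 0 to 38 genes for the block (38 without CT26 anti-PD-1 40), 422 to 1452 for the interaction (422 without CT26 IgG 28, 1452 without PancO2 IgG 48), 596 to 2128 for the Cp class, 8 to 1003 for the class with neither, 249 to 1118 for the Cp class only and 5 to 583 for the class with neither only (5 without PancO2 IgG 49, 583 without CT26 anti-PD-1 40). Over 24 named genes, picked for large changes in these same data, 1010 of 1125 values kept the direction and the side of the threshold, 115 missed it and 0 reversed. With each class alone only 4 of 24 passed.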

Other observations

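Of 23 collagen-processing genes 3 passed in the Cp class and 3 in the class with neither (edgeR, adjusted p under 0.05), beside 8.09% and 1.64% of all genes, and of 25 metalloproteinase and inhibitor genes 4 and 1 passed. With keratinocyte, muscle and adipocyte terms 1 and 2 of these lists passed in the Cp class. P4ha2, a collagen prolyl hydroxylase gene, rose by 1.02 in the class with neither, and P3h2 fell by 0.95 there. In the Cp class the collagen chaperone gene Serpinh1 rose by 0.49 and the procollagen proteinase gene Bmp1 by 0.62, while the crosslinking enzyme gene Loxl4 fell by 0.57 and Timp1, an inhibitor of metalloproteinases, fell by 0.62. Mmp15, a membrane-bound metalloproteinase gene, rose by 1.17 in the Cp class. Pericyte markers passed in 2 of 14 in that class, Mcam at 0.62 and Pdgfrb at 0.55, and in 0 of 14 in the class with neither, and 0 passed in the Cp class with the keratinocyte, muscle and adipocyte terms.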
